A study of Ovis aries with 26 samples.

Results

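Sheep embryos with 16 cells (16C) were compared with embryos with 8 cells (8C) by RNA sequencing, over the interval in which the major wave of transcription from the embryo's own genome is known to begin in this species. All 3 16C libraries and all 4 8C libraries entered the comparison, 7 of the 26 libraries in the series, which runs from oocytes arrested at the second meiotic metaphase (MII) to expanded blastocysts. Both groups came from oocytes fertilized in vitro and kept in culture, with no other treatment and no genotype or breed in the labels. Embryos were lysed directly and polyadenylated RNA was copied by Smart-seq2, a method for full-length cDNA from very small samples. The labels do not give the number of embryos in a library, nor say whether replicates were separate cultures or parents, so a p-value speaks for the variation among these 7 libraries, which may be technical.

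Levels are the authors' FPKM, fragments per kilobase of gene per 1e6 fragments, which describe a gene's share of a library and not its amount per embryo. In whole embryos, fewer cells that carry an RNA and less of it per cell cannot be told apart. Since polyadenylated RNA was copied, a change in the length of the poly(A) tail and a change in the amount of an RNA cannot be told apart either. Tested genes were the 11000 with an FPKM of at least 1 in at least 2 of the 7 libraries. Differences are 16C minus 8C on the log2(FPKM + 1) scale; the added 1 shrinks the differences of genes with low values. A gene is said to have risen or fallen where limma's moderated two-sided test gave a Benjamini-Hochberg adjusted p under 0.05 and the difference was at least 1. Every adjusted p below comes from that test, and ± after a difference is its standard error (SE).

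A mammalian embryo begins development on RNA and protein stored in the egg. These maternal messages are translated, deadenylated and removed in steps, while the embryonic genome is at first transcribed little and then activated in a major wave whose timing differs between species. Genes known from that wave include homeobox and zinc finger transcription factors that are silent in the oocyte, and genes for making RNA, ribosomes and protein.

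The 7 libraries were of like depth, with 30.4 to 34.4 units of 1e6 assigned reads per library at 16C and 30.8 to 35.6 at 8C. Across the tested genes, Pearson's r on log2(FPKM + 1) was 0.95 between 16C 1 and 16C 2, and 0.88 and 0.898 between 16C 3 and those libraries. Among the 8C libraries it was 0.962 to 0.973. Library 16C 3 therefore stands apart from its group: its r with the mean of the morulae was 0.85, against 0.70 for 16C 1 and 0.729 for 16C 2, and the 8C libraries had 0.622 to 0.647. Counts and medians of the gene lists are for this reason also given without it. Markers of cells that could have come along are given for the groups, and their part in the results was not tested. Of 14 tested markers of cumulus and granulosa cells, which surround the oocyte, 0 passed the test (0 also without 16C 3), and the summed FPKM of the 21 in the table was 62.8 to 238 in 16C libraries and 51.4 to 429 in 8C libraries. The lowest of them was the proteoglycan gene SRGN, at 7.69, 84.9 and 0.452 FPKM in 16C libraries, against 114, 173, 246 and 5.47 FPKM in 8C libraries, with a difference of -2.87 and an adjusted p of 0.26. Of 17 sperm markers in the table, 7 were at 0 in all 7 libraries, 4 were tested and 0 passed, and of 2 tested blood cell markers 0 passed (1 was lower without 16C 3).

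Called changes were mostly upward and from low levels, while the median over all tested genes was slightly below 0. At 16C, 513 genes were higher (4.66% of the genes tested) and 166 were lower (1.51%). Counts of every gene list below are to be read against these shares. Of the tested genes 400 were below 1 FPKM in every 8C library and passed the filter only through their 16C values. Such genes could hardly come out lower, and 101 of them were called higher and 0 lower. The higher genes had a median difference of 2.03, with 105 of them at 3 or more, and a median of their mean levels of 27.1 FPKM in 16C and 3.85 FPKM in 8C libraries. The lower genes moved less, with a median difference of -1.19 and none below -2.35, and a median of mean levels of 6.31 FPKM in 16C and 17.4 FPKM in 8C libraries. The median over all tested genes was -0.14. By lack of overlap alone, with no threshold on size or on adjusted p, the balance ran the other way. Every 16C library lay above every 8C library for 1185 tested genes (10.8%) and below every 8C library for 1438 (13.1%). With the threshold on adjusted p alone 776 genes passed. The 513 higher genes were among them, so that balance was still upward. Of the called genes 75.6% were higher; that share was 63.7% after rescaling to TPM, with an overall median of -0.26, and 89.1% after median-ratio scaling, with one of -0.01. Left out 1 at a time, the 7 libraries gave 278 to 735 higher and 25 to 272 lower genes, the fewest higher ones without 8C 4 and the fewest lower ones without 8C 2. In the fit of all 7 libraries and in all 7 fits of 6, 259 genes were higher and 19 were lower.

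**Figure D1:**
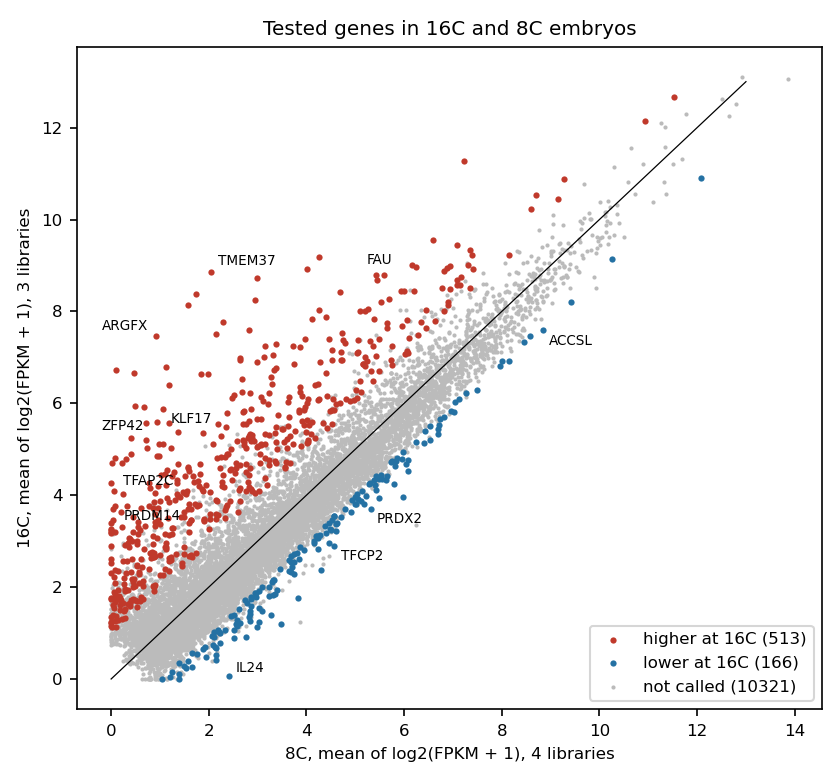
Mean log2(FPKM + 1) of each tested gene in the 3 16C libraries (vertical axis) against the 4 8C libraries (horizontal axis), with the line of equal levels. The 513 higher genes fan out above the line most widely where the 8C level is near 0, while the 166 lower genes lie along a narrow band beneath it.

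The largest rises were of genes nearly silent in 8C embryos. TMEM37, which codes for a membrane protein related to calcium channel subunits, had 261, 561 and 687 FPKM in 16C libraries, against 2.61, 0.81, 7.68 and 4.22 FPKM in 8C libraries (6.81 ± 0.51 SE, adjusted p = 0.00012). ZIM3, a gene for a KRAB zinc finger protein of the class that binds DNA and recruits repressors, had 211, 448 and 382 FPKM in 16C libraries, against 0.463, 0.409, 12.2 and 3.59 FPKM in 8C libraries (6.63 ± 0.71 SE, adjusted p = 0.00079). For both genes every 16C library was far above every 8C library. GCSH, the lipoyl-carrying protein of the glycine cleavage system, was higher in every 16C library but very unequal among them, at 76, 105 and 2770 FPKM in 16C libraries, against 0.446, 1.87, 2.75 and 4.0 FPKM in 8C libraries (6.57 ± 1.06 SE, adjusted p = 0.0065). PRPS1, which makes the phosphoribosyl pyrophosphate that nucleotide synthesis starts from, had the same shape, at 92.7, 218 and 1359 FPKM in 16C libraries, against 1.3, 9.7, 14.6 and 8.03 FPKM in 8C libraries (5.31 ± 0.88 SE, adjusted p = 0.0073). In both, 16C 3 was far above the other 16C libraries, and the differences were 4.93 for GCSH and 4.22 for PRPS1 without it.

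GM2A, RNF11 and PKIB were more alike in the 16C libraries. GM2A, a lysosomal activator of ganglioside breakdown, had 61.8, 51.5 and 65.8 FPKM in 16C libraries, against 1.21, 0.817, 0.528 and 0.0563 FPKM in 8C libraries (5.24 ± 0.29 SE, adjusted p = 5.3e-05). RNF11, a RING finger protein of ubiquitin ligase complexes, had 149, 258 and 155 FPKM in 16C libraries, against 3.09, 5.04, 4.55 and 1.74 FPKM in 8C libraries (5.37 ± 0.33 SE, adjusted p = 6.1e-05). PKIB, an inhibitor of protein kinase A, had 53.1, 108 and 39 FPKM in 16C libraries, against 0, 0.367, 0.228 and 1.28 FPKM in 8C libraries (5.46 ± 0.40 SE, adjusted p = 0.00012). Within each of these genes the 16C libraries lay within a factor of 3 of each other, and 16C 3 was the lowest for PKIB. ZCCHC10 averaged 233 ± 103 FPKM at 16C and 4.02 ± 1.39 FPKM at 8C (SD, n = 3 and 4; difference 5.49, adjusted p = 6.1e-05). BECN2, a relative of the autophagy gene BECN1, was listed at 0 in 8C 1 and 8C 2 and reached 49.9, 100.2 and 196 FPKM at 16C (6.18 ± 0.46 SE, adjusted p = 0.00012). The lysosomal protease gene CTSV had 48.7, 44.5 and 260.2 FPKM in 16C libraries, against 1.5, 2.4, 0.313 and 1.37 FPKM in 8C libraries (5.21, and 4.39 without 16C 3). DESI2, a gene for a deSUMOylating peptidase, had 12.2, 52.4 and 150.3 FPKM in 16C libraries, against 0.283, 1.4, 0.641 and 0.458 FPKM in 8C libraries (4.85, and 4.01 without 16C 3). In BECN2, CTSV and DESI2 the 16C libraries were unequal and 16C 3 was the highest. All 12 kept their calls in every fit that left out 1 library.

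**Figure D2:**
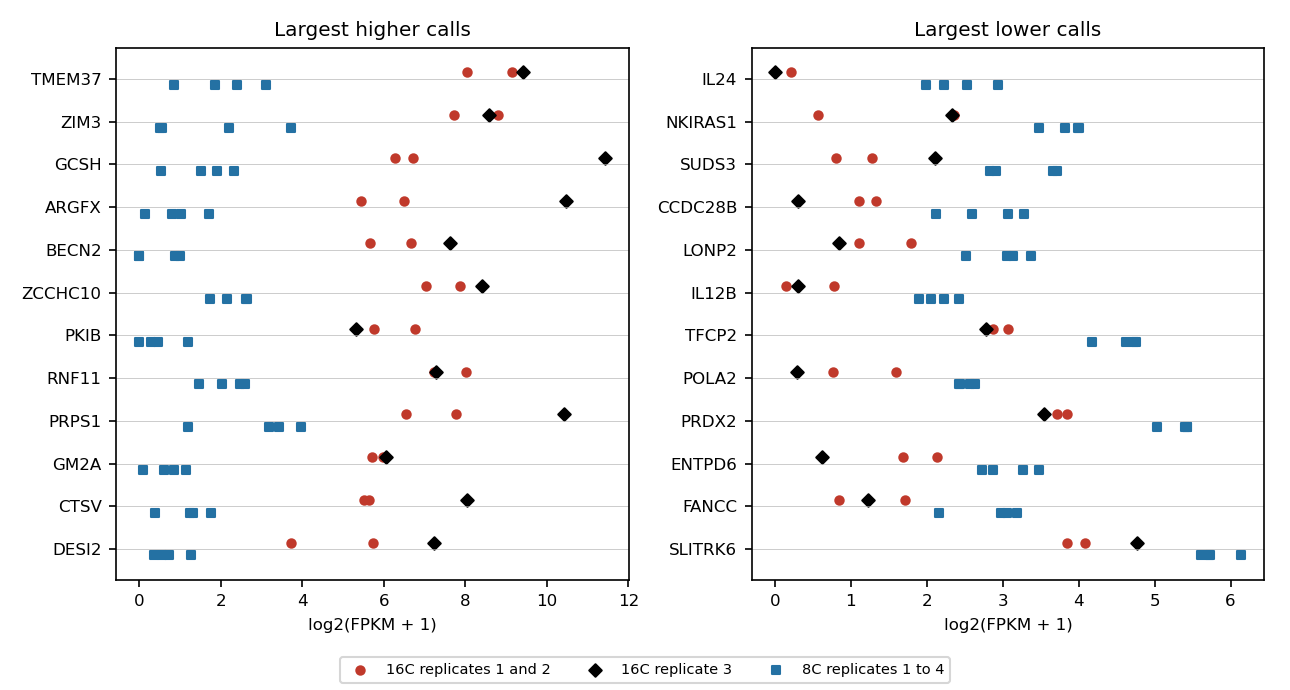
log2(FPKM + 1) of every 16C library (circles, and a diamond for replicate 3) and every 8C library (squares) for the 12 largest higher and 12 largest lower genes that stayed called without 16C 3. No 16C value overlaps an 8C value in either panel, since the genes were chosen so; the gap is wide on the left and narrow on the right.

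Transcription factors known from genome activation and pluripotency were among the genes that rose. KLF17, a Krüppel-like factor of the human naive epiblast, had 55.1, 70.4 and 50.1 FPKM in 16C libraries, against 0.352, 0.992, 2.26 and 1.12 FPKM in 8C libraries (4.83 ± 0.32 SE, adjusted p = 6.1e-05). PRDM14, a repressor that guards pluripotency, had 12.7, 10.7 and 15 FPKM in 16C libraries, against 0, 0.0345, 0.209 and 0.0172 FPKM in 8C libraries (3.69 ± 0.24 SE, adjusted p = 6.1e-05). TFAP2C, an AP-2 factor of trophectoderm and naive pluripotency, had 12.8, 20.2 and 15.8 FPKM in 16C libraries, against 0.0428, 0.0299, 0.0412 and 0.0747 FPKM in 8C libraries (4.02 ± 0.25 SE, adjusted p = 6.1e-05). For all 3 the 16C libraries were close together and every 8C library was at or below 2.26 FPKM. ARGFX, a homeobox gene of the PRD-like class expressed in early human embryos, had 42.5, 88.9 and 1417 FPKM in 16C libraries, against 0.0975, 2.25, 0.752 and 1.02 FPKM in 8C libraries (6.55 ± 0.98 SE, adjusted p = 0.0044). ZFP42, also called REX1, had 18.9, 28.3 and 92.5 FPKM in 16C libraries, against 0.421, 0.254, 0.645 and 0.0441 FPKM in 8C libraries (4.84 ± 0.47 SE, adjusted p = 0.00044). In these 2 genes 16C 3 was the highest, and without it the differences were 5.05 for ARGFX and 4.19 for ZFP42.

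Of 16 tested genes on a list of zygotic activation genes, 9 rose, 0 fell and all 16 differences were above 0, with a median of 1.89. Besides KLF17 and ARGFX they included the homeobox gene OTX2 (3.08 ± 0.45 SE, adjusted p = 0.004), the ETS factor GABPA (3.40 ± 0.33 SE, adjusted p = 0.00044), the Krüppel-like factor KLF5 (1.83 ± 0.29 SE, adjusted p = 0.0062) and the translation initiation factor EIF1AX (1.58 ± 0.31 SE, adjusted p = 0.018). The T-box gene TBX3 (1.23 ± 0.27 SE, adjusted p = 0.027) and the phosphate transporter gene SLC34A2 (3.14 ± 0.68 SE, adjusted p = 0.026) rose from below 0.3 FPKM in every 8C library. Without 16C 3, 10 of the 16 rose and the median was 1.39. The list held 31 genes, of which 19 were among the deposited genes. OTX2, TBX3 and SLC34A2 were below 1 FPKM in every 8C library and passed the filter only through their 16C values. Such genes could hardly come out lower, and the list was chosen with earlier results of these data known. Its counts are therefore a description. The calls of TBX3 and SLC34A2 ended when any of the 4 8C libraries was left out (adjusted p up to 0.079 and 0.075), that of TBX3 also without 16C 2, and that of EIF1AX without 8C 3 or 8C 4 (up to 0.062).

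ZSCAN4, the zinc finger gene that marks activation in several mammals, was not called. It had 219, 322 and 249 FPKM in 16C libraries, against 29.2, 50.9, 235 and 118 FPKM in 8C libraries, and 8C 3 lay within the range of the 16C libraries (1.68 ± 0.59 SE, adjusted p = 0.12). Left out 1 at a time, the other libraries gave no call for it, while without 8C 3 it was higher (adjusted p = 0.037). SUPT4H1, a subunit of a transcription elongation factor, spread in the same way in both groups, at 312, 744 and 186 FPKM in 16C libraries, against 15.3, 57, 146 and 168 FPKM in 8C libraries (2.34 ± 0.77 SE, adjusted p = 0.099). The groups did not overlap for SUPT4H1, yet 8C 4 was close to 16C 3. KDM5B, a histone H3 lysine demethylase, had a difference of 1.10 and an adjusted p of 0.11, and KLF4 had 0.80 and 0.09. DUXB, a double homeobox gene, was below 0.5 FPKM in every library of both stages and was not tested.

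Lineage regulators were uneven. Of 20 tested genes on a pluripotency and inner cell mass list, 7 rose and 1 fell, with a median of 0.56 (8 and 1 without 16C 3, median 0.51). PRDM14, TFAP2C and ZFP42, which are on this list, were below 1 FPKM in every 8C library. They passed the filter only through their 16C values and could hardly come out lower, so the counts are a description. The member that fell was the signal transducer STAT3, at 19.3, 15.9 and 19.8 FPKM in 16C libraries, against 38.8, 44.9, 35.8 and 35.8 FPKM in 8C libraries. The core factor POU5F1 had 2.9, 1.55 and 3.32 FPKM in 16C libraries, against 1.88, 1.61, 1.19 and 3.69 FPKM in 8C libraries, and NANOG had 0.601, 1.92 and 0.701 FPKM in 16C libraries, against 0, 0, 1.89 and 1.5 FPKM in 8C libraries. Both overlapped between the stages, with 95% confidence intervals of the difference from -0.49 to 0.98 for POU5F1 and from -0.72 to 1.29 for NANOG. SOX2, another core factor, and CDX2, a trophectoderm regulator, stayed at or below 0.122 FPKM in every library of both stages and were not tested. Of 21 tested trophectoderm genes TFAP2C rose and the tight junction gene OCLN fell (-1.02 ± 0.22 SE, adjusted p = 0.028), and the median was -0.30 (1 and 1 without 16C 3, median -0.27). The share that rose was near the 4.66% of all tested genes, of which 1.51% fell. GATA3 had a difference of -0.26 with an adjusted p of 0.56. Of 12 tested primitive endoderm genes GATA6 alone rose (as it did without 16C 3), at 1.36, 2.04 and 3.41 FPKM in 16C libraries, against 0.192, 0.30, 0.228 and 0.0381 FPKM in 8C libraries (1.42 ± 0.28 SE, adjusted p = 0.017). Like TFAP2C, GATA6 passed the filter only through its 16C values and could hardly come out lower. The GATA6 call ended without 8C 1, 8C 3 or 8C 4 (adjusted p up to 0.062), and the OCLN call ended in every fit of 6 libraries other than those without 16C 3 or 8C 4 (up to 0.11). Without 16C 2 or any 8C library STAT3 was not among the calls.

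**Figure D3:**
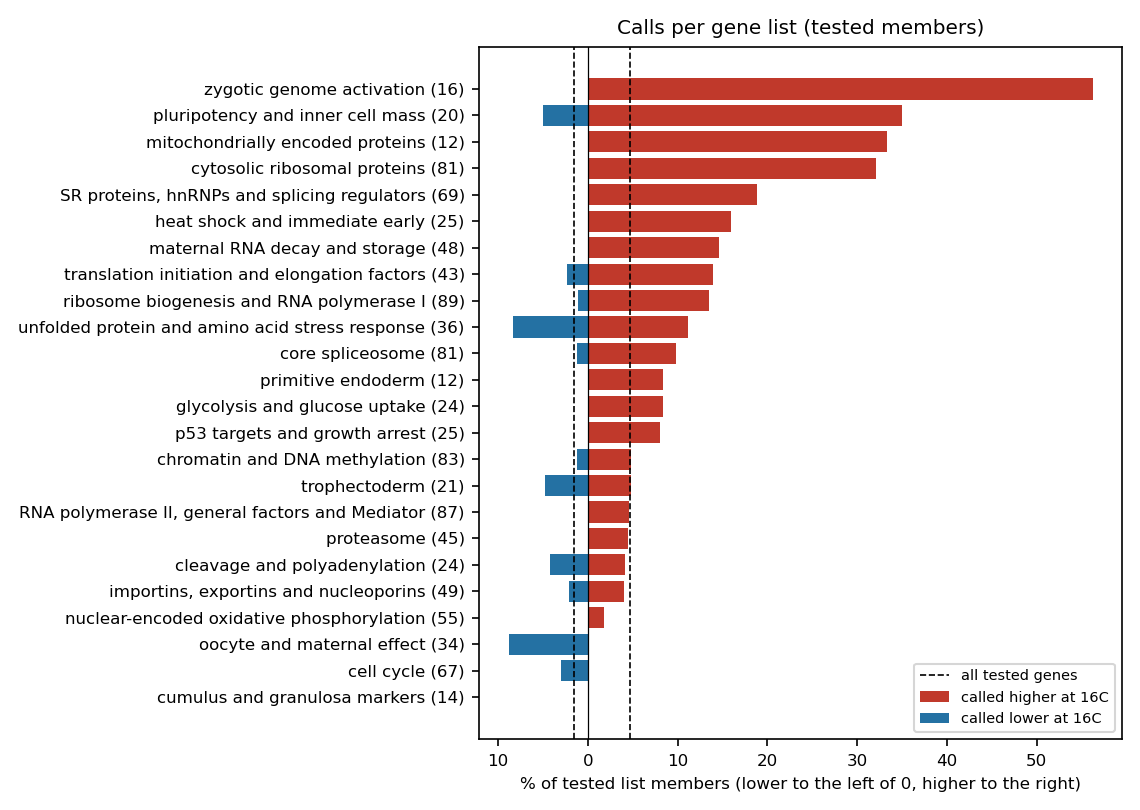
Percentage of the tested members of each gene list that were higher (right of 0) or lower (left of 0) at 16C; the number tested is in brackets and dashed lines give 4.66% and 1.51% of all tested genes. Zygotic activation, pluripotency, mitochondrially encoded and ribosomal protein genes have the longest bars to the right, and the oocyte list has the longest to the left.

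Levels before 8C and at 8C describe the called genes; since the calls were made on the 8C and 16C values, the shares that use these values are no evidence of their own. Of the 513 higher genes, 88 (17.2%) were off in every 8C library (below 1 FPKM) and on in each of the 16C libraries (130 of all tested genes, 1.18%). Many of the higher genes had been present in the egg, but a smaller share than of all tested genes. At least 1 FPKM in both MII libraries was found for 297 (57.9%), against 72.7% of all tested genes. A larger share, 106 (20.7%) against 6.39%, were below 1 in every MII, 2-cell and 4-cell library. Of the lower genes, 158 (95.2%) had at least 1 FPKM in both MII libraries and 0 were below 1 in every library before 8C. Only 10 (6.02%) of them were at 1 or more in every 8C and below 1 in every 16C library. A fall of at least 1 needs a level of at least 1 FPKM in some 8C library. Levels at 8C also resembled earlier ones, with r of 0.941 to 0.972 between the 8C libraries and the mean of the 4-cell libraries. The shares before 8C are therefore partly set by the choice of genes as well. The total number of genes detected overlapped between the stages, at 9796 ± 98 genes with an FPKM of at least 1 in 16C and 9713 ± 129 in 8C libraries (SD, n = 3 and 4; exact two-sided permutation p = 0.4, where 0.0571 is the smallest p possible).

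Among the higher genes the stage with the highest mean was 16C for 120 (23.4%) and the morula for 248 (48.3%), a description of genes that were chosen for a high level at 16C. ZIM3 averaged 4.17 ± 5.56 FPKM at 8C, 347 ± 122 at 16C and 86.1 ± 19 in morulae (SD, n = 4, 3 and 3). PKIB averaged 0.47 ± 0.564 FPKM at 8C, 66.8 ± 36.6 at 16C and 3.26 ± 2.6 in morulae. The growth regulator MYC averaged 1.84 ± 0.743 FPKM at 8C, 19.8 ± 16.8 at 16C and 1.2 ± 1.08 in morulae, and the secreted hormone gene STC2 averaged 0.262 ± 0.286 FPKM at 8C, 3.97 ± 0.657 at 16C and 0.133 ± 0.109 in morulae. Each of these 4 genes had its lowest 16C library above its highest 8C and its highest morula library. For other genes the 16C mean lay between those of the neighbouring stages: SLC34A2 averaged 0.0522 ± 0.076 FPKM at 8C, 15.3 ± 20.5 at 16C and 109 ± 51.1 in morulae. The means of KLF5 were 2.09 ± 0.243 FPKM at 8C, 10.5 ± 4.44 at 16C and 102 ± 42.7 in morulae.

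**Figure D4:**
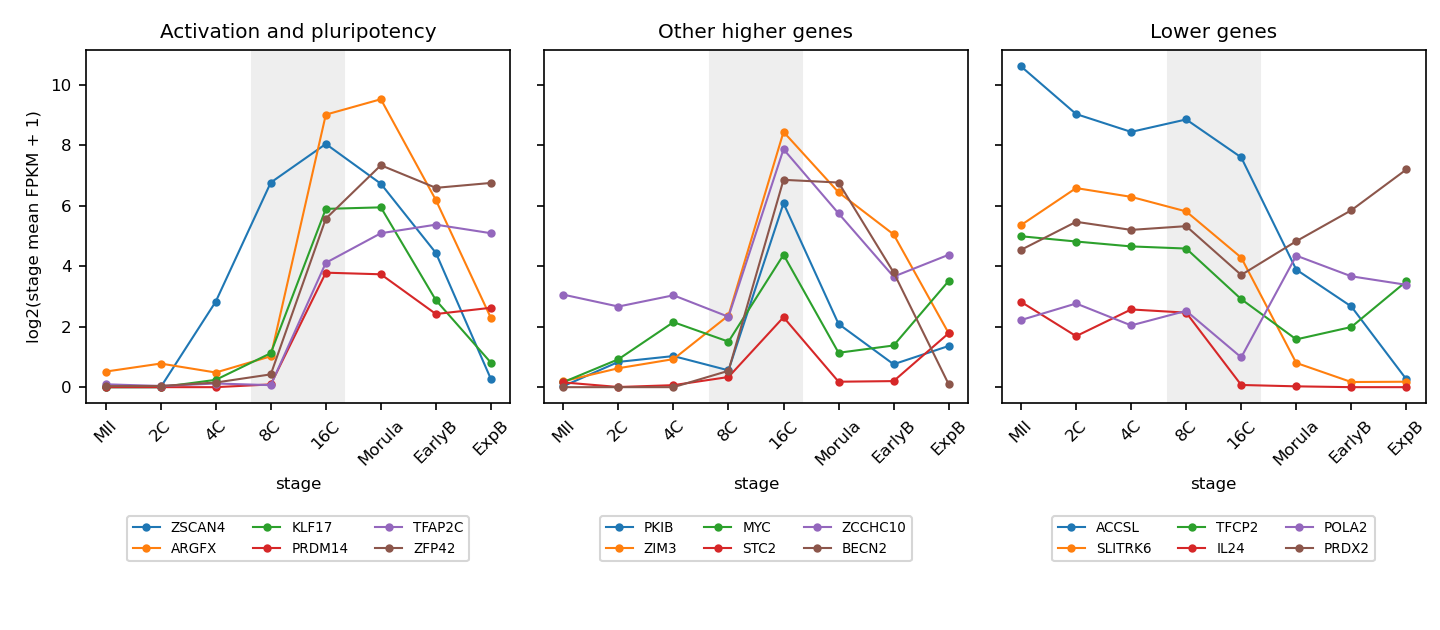
log2 of the stage mean FPKM plus 1 from MII oocytes to expanded blastocysts (ExpB) for 18 genes, with 8C and 16C shaded. ZSCAN4, which was not called, is already high at 8C; PKIB, MYC and STC2 peak at 16C, and POLA2 and PRDX2 have their lowest mean at 16C.

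The transcription and RNA processing machinery changed in part of its members. Of 69 tested SR proteins, hnRNPs and other splicing regulators, 13 rose and 0 fell, with a median of 0.37 (14 and 0 without 16C 3, median 0.29). HNRNPAB, an hnRNP that binds messenger RNA, had 27.5, 39.5 and 60.6 FPKM in 16C libraries, against 1.4, 1.12, 2.49 and 1.57 FPKM in 8C libraries (3.99 ± 0.31 SE, adjusted p = 0.00015). TRA2B, a splicing activator, had 85, 129 and 115 FPKM in 16C libraries, against 7.46, 6.33, 17.1 and 9.28 FPKM in 8C libraries (3.40 ± 0.33 SE, adjusted p = 0.00044). HNRNPA2B1 rose with a difference of 2.79 and SRSF5 with 2.79, and the 16C libraries of each lay above every 8C library. These 4 genes stayed called in every fit that left out 1 library, and the count for the list was 11 to 18 in those fits.

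Of 81 tested members of the core spliceosome 8 rose and 1 fell, against 4.66% and 1.51% of all tested genes, and without 16C 3 there were 8 and 3. The median was 0.04, and its sign turned on the TPM scale (-0.07), with quantile normalization (-0.03), with array weights (-0.14), without 16C 3 (-0.08) and without 8C 3 (-0.02). Lower members numbered 3 with TPM and quantile scaling and 5 with array weights. BCAS2, a subunit of the Prp19 complex, had 405, 446 and 570.2 FPKM in 16C libraries, against 83.1, 92.3, 139.7 and 148 FPKM in 8C libraries (2.05 ± 0.26 SE, adjusted p = 0.0018). PHF5A, a component of the SF3b complex, had 80.5, 139.7 and 1138 FPKM in 16C libraries, against 13.3, 15.8, 30.8 and 24.7 FPKM in 8C libraries (3.48 ± 0.76 SE, adjusted p = 0.026), with 16C 3 at many times the level of the other 16C libraries. The helicase gene DHX15 (2.38 ± 0.34 SE, adjusted p = 0.0034) and SNRPC of the U1 particle (2.52 ± 0.47 SE, adjusted p = 0.013) also rose. CASC3, of the exon junction complex, fell (-1.14, adjusted p = 0.043) and was not called without 16C 3, 8C 1, 8C 2 or 8C 4, although 3 other members were lower without 16C 3. Leaving out any 8C library ended the PHF5A call (adjusted p up to 0.077) and left 4 higher members in the list.

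Of 87 tested genes for RNA polymerase II, its general factors and Mediator, 4 rose and 0 fell, a share near the 4.66% of all tested genes (5 and 1 without 16C 3, with a median of -0.18 against -0.08 with it). The elongation factor gene ELL2 had 51.7, 68.8 and 166 FPKM in 16C libraries, against 9.89, 8.42, 9.86 and 7.51 FPKM in 8C libraries (3.11 ± 0.36 SE, adjusted p = 0.0012). The Mediator subunit genes MED29 (2.16 ± 0.35 SE, adjusted p = 0.0064) and MED31 (1.73 ± 0.33 SE, adjusted p = 0.016) and CDC73, of the PAF1 elongation complex (1.11 ± 0.26 SE, adjusted p = 0.035), were the others; 8C 4 was the lowest for MED29 and CDC73 and stood apart from the other 8C libraries in both. The MED31 call ended without 8C 1 or 8C 2, and the CDC73 call without 16C 2 or any 8C library (adjusted p up to 0.058 and 0.088). Of 24 tested cleavage and polyadenylation genes RBBP6 rose (1.91 ± 0.43 SE, adjusted p = 0.03) and CSTF2, which binds downstream of the poly(A) signal, fell (-1.04 ± 0.23 SE, adjusted p = 0.03). The share that rose was near the 4.66% of all tested genes, of which 1.51% fell. The median of the list was -0.05, and -0.06 with 0 higher and 1 lower without 16C 3. RBBP6 was not called without 16C 3 (adjusted p = 0.052), nor without 16C 2 or any 8C library, and CSTF2 was not called without 16C 1 or any 8C library (up to 0.11).

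Ribosomal protein genes were higher at 16C by count and by median. Of 81 tested cytosolic ribosomal protein genes 26 rose and 0 fell, 80 of the 81 differences were above 0 and the median was 1.26. Their summed level was 13480, 12330 and 27130 FPKM in the 16C libraries, against 7296, 7459, 6775 and 8047 FPKM in the 8C libraries, so that every 16C library was above every 8C library and 16C 3 was the highest. FAU, which codes for ribosomal protein S30 joined to a ubiquitin-like part, had 343, 498 and 515 FPKM in 16C libraries, against 38.8, 35.8, 58 and 59.7 FPKM in 8C libraries (3.22 ± 0.26 SE, adjusted p = 0.00017). RPL26 had 62, 61.5 and 219 FPKM in 16C libraries, against 11, 10.6, 7.11 and 6.78 FPKM in 8C libraries (3.30 ± 0.43 SE, adjusted p = 0.0023). RPS3A (2.87 ± 0.67 SE, adjusted p = 0.035) and RPL22L1 (2.85 ± 0.54 SE, adjusted p = 0.015) rose most in 16C 3, at 2054 and 139.5 FPKM there. Without 16C 3 the list had 21 higher genes and a median of 0.84. Without an 8C library it had 10 (8C 1), 11 (8C 2), 7 (8C 3) or 7 (8C 4), with medians of 1.13 to 1.3. The RPS3A call ended without 16C 2 or any 8C library and the RPL22L1 call without 8C 4 (adjusted p up to 0.1 and 0.052). Ribosomal protein genes have many processed pseudogenes, and the counting could have split reads between copies.

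Of 89 tested ribosome biogenesis and RNA polymerase I genes 12 rose and 1 fell, with a median of 0.32 (12 and 2 without 16C 3, median 0.06). NOP16, a nucleolar protein of the large subunit, had 142, 402 and 699 FPKM in 16C libraries, against 25.6, 27.2, 32 and 16.4 FPKM in 8C libraries (3.74 ± 0.47 SE, adjusted p = 0.0018). NHP2 and NOP10, which belong to the particles that guide pseudouridylation, rose by 3.34 and 2.41, and NOP10 lost its call without 8C 2 or 8C 4 (adjusted p up to 0.062). MYC, counted here for its part in ribosome production, had 13.2, 38.9 and 7.36 FPKM in 16C libraries, against 1.94, 1.54, 2.82 and 1.07 FPKM in 8C libraries (2.60 ± 0.48 SE, adjusted p = 0.013), with 16C 3 the lowest of the 16C libraries. The member that fell was PWP1, at -1.34 (adjusted p = 0.017). The list had 21 higher members without 16C 1 and 6 without 8C 4, and 0 lower ones without 16C 2 or 8C 4.

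Of 43 tested translation factors 6 rose and 1 fell, with a median of 0.36 (5 and 2 without 16C 3, median 0.23). ETF1, the factor that ends translation at stop codons, had 89.2, 139 and 167 FPKM in 16C libraries, against 9.16, 9.79, 6.59 and 6.22 FPKM in 8C libraries (3.87 ± 0.28 SE, adjusted p = 0.00011) and was the gene in this list with the largest difference. EIF6 (2.42 ± 0.41 SE, adjusted p = 0.0082), EIF5A (2.36 ± 0.50 SE, adjusted p = 0.025) and EIF3J (1.63 ± 0.39 SE, adjusted p = 0.036) rose as well, while EIF3L fell (-1.28, adjusted p = 0.027). Without 16C 2 or any 1 of the 8C libraries 2 or 3 members were higher; there were 10 without 16C 1, and 0 lower members in all of these fits. Among the losses without 16C 2 or an 8C library were EIF3J in all of these fits and EIF5A in all but that without 8C 4 (adjusted p up to 0.1 and 0.073).

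Oocyte and maternal-effect transcripts were lower at 16C by median, with few calls. Of 34 tested oocyte and maternal-effect genes 0 rose and 3 fell, and 32 of the 34 differences were below 0, with a median of -0.72 (0 and 3 without 16C 3, median -0.54). Over all tested genes 1.51% fell and the median was -0.14. The list had a median of -0.57 with 2 lower genes after median-ratio scaling, and of -0.86 with 4 on the TPM scale. With the replicate number as a block 0 were lower, and in the fit of all 26 libraries 8 were. ACCSL, an oocyte-enriched gene named for its likeness to a plant enzyme, had 183, 183 and 212 FPKM in 16C libraries, against 526, 475, 354 and 491 FPKM in 8C libraries (-1.24 ± 0.20 SE, adjusted p = 0.0062). NLRP5, a subunit of the subcortical maternal complex, had 0.305, 0.425 and 0.66 FPKM in 16C libraries, against 1.83, 2.9, 1.85 and 3.24 FPKM in 8C libraries (-1.22 ± 0.26 SE, adjusted p = 0.025). ZAR1L, a relative of the maternal RNA-binding gene ZAR1, had 31.1, 26.9 and 23.4 FPKM in 16C libraries, against 48.3, 50.5, 51.8 and 82 FPKM in 8C libraries (-1.05 ± 0.25 SE, adjusted p = 0.035), with 8C 4 far above the other 8C libraries. ACCSL stayed called in every fit of 6 libraries; NLRP5 was not called without 16C 2 or any 8C library (adjusted p up to 0.089), and ZAR1L was not called without any 1 library other than 16C 1 (up to 0.089). The list had 9 lower members without 16C 1 and 1 without 16C 2 or any 8C library.

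Other oocyte genes did not pass the test, and their levels at 16C ranged widely. BTG4, the adaptor that recruits the deadenylase to maternal RNA, had 1632, 1920 and 1830 FPKM in 16C libraries, against 2065, 2584, 2774 and 2922 FPKM in 8C libraries (-0.52 ± 0.18 SE, adjusted p = 0.11); the groups did not overlap, but the difference was under 1. GDF9 and BMP15, growth factors that the oocyte secretes, overlapped between the stages, with GDF9 at 579, 527 and 419 FPKM in 16C libraries, against 459.8, 592, 632 and 828 FPKM in 8C libraries. BMP15 had 218, 149.6 and 121 FPKM in 16C libraries, against 221, 214, 239 and 334 FPKM in 8C libraries (-0.65, adjusted p = 0.15). ZAR1 was low at both stages, at 3.14, 2.42 and 1.58 FPKM in 16C libraries, against 5.61, 5.33, 2.84 and 4.62 FPKM in 8C libraries (-0.72, adjusted p = 0.16). In morulae BTG4 averaged 97.9 ± 19.1 FPKM and GDF9 62 ± 9.89 FPKM (SD, n = 3).

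Factors of maternal RNA decay and storage included 7 that rose and 0 that fell of 48 tested, with a median of -0.03; it was above 0 after median-ratio scaling (0.13), with array weights (0.01), without 16C 3 (0.04, with 7 higher) and without 8C 1 (0.03). TUT7, which adds uridines to deadenylated RNA, had 37.9, 55.1 and 63 FPKM in 16C libraries, against 12.2, 11.3, 11.9 and 10.5 FPKM in 8C libraries (2.06 ± 0.23 SE, adjusted p = 0.001). YTHDF2, a reader of N6-methyladenosine that directs RNA to decay, had 20.4, 43.2 and 46.8 FPKM in 16C libraries, against 4.88, 8.63, 3.75 and 6.13 FPKM in 8C libraries (2.43 ± 0.35 SE, adjusted p = 0.0036). BTG3 (2.50 ± 0.60 SE, adjusted p = 0.037) and the decapping cofactor gene PATL1 (1.53 ± 0.30 SE, adjusted p = 0.018) also rose. Without any 1 of the 8C libraries 3 members were higher, and the losses included BTG3 (which was lost without 16C 2 too) and PATL1 (adjusted p up to 0.11 and 0.059).

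The 12 largest falls were spread over genes of several functions. IL24, a cytokine gene, had 0, 0.155 and 0 FPKM in 16C libraries, against 3.7, 2.95, 4.79 and 6.64 FPKM in 8C libraries (-2.35 ± 0.29 SE, adjusted p = 0.0015). TFCP2, a grainyhead-like transcription factor gene, had 6.32, 7.36 and 5.88 FPKM in 16C libraries, against 26.1, 25.4, 23.6 and 17.1 FPKM in 8C libraries (-1.66 ± 0.23 SE, adjusted p = 0.0031). PRDX2, which reduces hydrogen peroxide, had 13.4, 12.1 and 10.7 FPKM in 16C libraries, against 42, 41.1, 31.6 and 41.9 FPKM in 8C libraries (-1.62 ± 0.21 SE, adjusted p = 0.0024), with 8C 3 apart from the other 8C libraries. In each the 16C libraries were close together and all lay below the lowest 8C library. The neuronal membrane gene SLITRK6 (-1.56), the peroxisomal protease gene LONP2 (-1.77) and the cytokine subunit gene IL12B (-1.74) also kept their calls in every fit of 6 libraries. Of the others, the NF-kappaB regulator gene NKIRAS1 (-2.07) was not called without 8C 1, 8C 2 or 8C 4, the SIN3 corepressor gene SUDS3 (-1.88) without 16C 2, 8C 1 or 8C 2, and CCDC28B (-1.85) without 8C 2 or 8C 3. POLA2 (-1.64) was not called without 16C 2 or any 8C library, the nucleotidase gene ENTPD6 (-1.61) without any 8C library, and the Fanconi anaemia gene FANCC (-1.59) without 16C 2, 8C 2, 8C 3 or 8C 4. The adjusted p of these 6 genes reached 0.058 to 0.11 in those fits.

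Some of the lower genes had their lowest stage mean at 16C. POLA2, a subunit of the DNA polymerase alpha primase, averaged 4.75 ± 0.406 FPKM at 8C, 0.98 ± 0.932 at 16C and 19.4 ± 10.2 in morulae (SD, n = 4, 3 and 3). PRDX2 averaged 39.1 ± 5.03 FPKM at 8C, 12.1 ± 1.39 at 16C and 146 ± 32.8 in expanded blastocysts. ACCSL, SLITRK6 and IL24 had lower means in morulae than at 16C, at 13.8, 0.743 and 0.019 FPKM. Of 67 tested cell cycle genes 0 rose and 2 fell, against 1.51% of all tested genes, with a median of -0.29 (0 and 3 without 16C 3, median -0.20). The lower members numbered 5 in the fit without 16C 1 and 1 in the fits without 16C 2 or 8C 3. There were 0 when 8C 1, 8C 2 or 8C 4 was left out. The 2 that fell with all 7 libraries were AURKC, an aurora kinase of meiosis and early cleavage (-1.11 ± 0.25 SE, adjusted p = 0.028), and the replicative helicase gene MCM7 (-1.10 ± 0.26 SE, adjusted p = 0.036). AURKC was not called without 16C 3 (difference -0.87), 8C 1, 8C 2 or 8C 4 (adjusted p up to 0.098), and MCM7 was not called without any 1 library other than 16C 3 (up to 0.12).

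Of 36 tested genes of the unfolded protein and amino acid stress response 4 rose and 3 fell, against 4.66% and 1.51% of all tested genes, with a median of -0.12. The counts were 4 and 2 without 16C 3, 7 and 1 without 16C 1, 3 and 1 without 16C 2, and 3 and 0 without any 1 of the 8C libraries. DNAJB9, an endoplasmic reticulum co-chaperone gene, had 115, 184 and 838 FPKM in 16C libraries, against 12.3, 16.6, 23.7 and 21.7 FPKM in 8C libraries (3.79 ± 0.57 SE, adjusted p = 0.0047). ATF3 had 19.8, 21.7 and 15.9 FPKM in 16C libraries, against 1.34, 1.04, 2.43 and 1.51 FPKM in 8C libraries (2.98 ± 0.26 SE, adjusted p = 0.00026). STC2 (2.00 ± 0.27 SE, adjusted p = 0.0027) and DDIT3 (1.74 ± 0.44 SE, adjusted p = 0.046) were the other higher members, and PDIA4 (-1.20), MTHFD2 (-1.37) and SLC3A2 (-1.08) were the lower ones. PDIA4 was not called without 16C 3, DDIT3 was not called without 16C 2 or any 8C library (adjusted p up to 0.13), and none of the 3 lower genes was called without an 8C library. Of 25 tested heat shock and immediate early genes 4 rose: ATF3, MYC, FOS (2.60 ± 0.35 SE, adjusted p = 0.0024) and MYCN; 4 also rose without 16C 3, where the median was -0.09 against 0.06 with it. FOS was higher in every 16C library than in any 8C library, among which 8C 4 stood apart, at 6.41, 6.09 and 12.3 FPKM in 16C libraries, against 0.298, 0.213, 0.219 and 1.38 FPKM in 8C libraries. MYCN was listed at 0 in all 4 8C libraries and had 1.58, 1.36 and 1.21 FPKM in the 16C libraries. It passed the filter only through its 16C values and could not come out lower. Of 25 tested p53 targets and growth arrest genes 2 rose, the BH3-only gene PMAIP1 (2.46 ± 0.42 SE, adjusted p = 0.0091) and GADD45A (1.59 ± 0.34 SE, adjusted p = 0.024), whose call ended without 16C 2, 8C 1, 8C 2 or 8C 4 (adjusted p up to 0.08); 3 rose without 16C 3.

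Among the mitochondrially encoded messages ND1, ND4, CYTB and ATP6 rose, 4 of 12 tested. They code for subunits of the respiratory chain and its ATP synthase. All 12 differences were above 0, with a median of 1.15 (6 of 12 and 1.14 without 16C 3). CYTB, of complex III, had 1736, 1345 and 2879 FPKM in 16C libraries, against 476, 500.1, 1082 and 551 FPKM in 8C libraries (1.62 ± 0.34 SE, adjusted p = 0.024). The 13 mitochondrial protein genes held 4.49%, 3.02% and 3.91% of the summed FPKM in 16C libraries, against 1.66%, 1.49%, 2.51% and 1.43% in 8C libraries. That is 3.81 ± 0.742% at 16C and 1.77 ± 0.501% at 8C (SD, n = 3 and 4; exact two-sided permutation p = 0.0571, the smallest possible). The groups did not overlap. Without 8C 1, 8C 2 or 8C 4, 0 of the 12 genes were called, with adjusted p up to 0.087 for ATP6, which was also not called without 16C 1. Of 55 tested nuclear-encoded oxidative phosphorylation genes NDUFA4 rose (2.42 ± 0.42 SE, adjusted p = 0.0099) and the median was 0.01. That median was -0.28, with 4 lower genes, without 16C 3, -0.09 on the TPM scale, -0.02 with quantile normalization and -0.23 with array weights.

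In other lists the share of higher genes was nearer to that of all tested genes. Of 45 tested proteasome genes PSMA1 rose to 94.1, 132 and 925 FPKM in 16C libraries, against 18.5, 18.8, 21.3 and 9.69 FPKM in 8C libraries (3.70 ± 0.67 SE, adjusted p = 0.012), and PSMA3 was the other (1.94 ± 0.43 SE, adjusted p = 0.029). None of the 45 fell, with a median of 0.10, but without 16C 3 there were 2 higher and 3 lower and the median was -0.13. The summed level of the proteasome genes was 2332, 2280 and 7796 FPKM in 16C libraries, against 4387, 4081, 3610 and 3499 FPKM in 8C libraries. Libraries 16C 1 and 16C 2 thus lay below every 8C library and 16C 3 above them all. Of 83 tested chromatin genes 4 rose, among them EED, of Polycomb repressive complex 2 (3.02 ± 0.63 SE, adjusted p = 0.023), and the insulator protein gene CTCF (1.42 ± 0.26 SE, adjusted p = 0.012), and the demethylase gene KDM1A fell (-1.32, adjusted p = 0.03). SETD2 (1.33 ± 0.25 SE, adjusted p = 0.015) and HDAC2 (1.54 ± 0.35 SE, adjusted p = 0.031) were the other 2, and 8C 4 stood apart as the lowest 8C library for SETD2. Of 49 tested importins, exportins and nucleoporins KPNA4 (2.80) and ALYREF (2.30) rose and the export cofactor gene NXT1 fell, at 13.6, 14.6 and 15 FPKM in 16C libraries, against 34.8, 48.8, 34.5 and 62.6 FPKM in 8C libraries (-1.54 ± 0.26 SE, adjusted p = 0.0078). Of 24 tested glycolysis and glucose uptake genes the pentose phosphate gene TKT (3.41 ± 0.64 SE, adjusted p = 0.014) and the glucose transporter gene SLC2A3 (1.11 ± 0.29 SE, adjusted p = 0.05) rose. Without 16C 3 the counts of higher and lower genes were 4 and 2 for chromatin, 3 and 1 for importins, exportins and nucleoporins, and 1 and 0 for glycolysis. Left out 1 at a time, the libraries gave 1 to 7 higher chromatin genes, 1 to 4 higher proteasome genes and 0 to 3 higher glycolysis genes. CTCF, PSMA1, KPNA4, ALYREF and NXT1 kept their calls in every fit of 6 libraries. SETD2 and TKT were not called without 8C 4, EED without 8C 2, 8C 3 or 8C 4, and PSMA3 without 16C 2, 8C 2, 8C 3 or 8C 4. HDAC2 was not called without 16C 2 or any 8C library, and SLC2A3 was called without 16C 1 but in no other fit of 6 libraries. The adjusted p of these 6 genes reached 0.05 to 0.13 there, and KDM1A was not called without 16C 2, 8C 1, 8C 2 or 8C 4.

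Most changes held without 16C 3, the library nearest to the morulae. Without it 544 genes were higher (4.95% of those tested) and 272 lower (2.47%). Of the genes called with all 7 libraries, 450 of 513 higher and 117 of 166 lower ones stayed called, 63 and 49 lost the call, and 0 reversed. Another 94 higher and 155 lower genes were called only without it. The median of the higher genes relative to the 8C mean was 1.55 in 16C 1, 1.92 in 16C 2 and 2.58 in 16C 3, and that of the lower genes was -1.13, -1.22 and -1.26. Library 16C 3 was the highest of the 3 for 371 (72.3%) of the higher genes, against 35.9% of all tested genes, and 16C 1 was the lowest for 342 (66.7%), against 30.4%; the same values chose these genes, so the shares are a description.

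Of the 6 largest calls lost without 16C 3, all but that of RBBP6 were of genes highest in it. RBBP6 had 18.05, 66.57 and 61.76 FPKM in 16C libraries, with 16C 2 the highest. CCT6A, a subunit of the TRiC chaperonin, had 6.47, 25.2 and 83.4 FPKM in 16C libraries, against 1.74, 2.52, 6.89 and 1.08 FPKM in 8C libraries (2.84, adjusted p = 0.049, and 1.98 and 0.073 without 16C 3). Library 16C 1 lay within the 8C range for that gene. RBBP6, ZNRD2, the chemokine gene CCL28, the prion protein gene PRNP and NUPR2 were the next, and their adjusted p without 16C 3 was 0.051 to 0.066, with differences of 1.38 to 1.64. These 6 calls also ended without any 1 of the 8C libraries, and without either 16C 1 (CCL28, PRNP) or 16C 2 (the other 4).

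Some genes were called only without 16C 3. SQSTM1, an autophagy receptor gene, had 2.06, 2.23 and 17.6 FPKM in 16C libraries, against 23.8, 16, 20.1 and 18.2 FPKM in 8C libraries (difference -1.84, adjusted p = 0.081, and -2.69 and 0.00027 without 16C 3). GET1, of the insertion pathway for tail-anchored proteins, had 21.4, 21.8 and 101 FPKM in 16C libraries, against 89.6, 80.2, 102 and 97.9 FPKM in 8C libraries (-1.31 and 0.12, and -2.04 and 0.0003 without it). For both, 16C 3 lay at the 8C level and the other 16C libraries far below it. PRKAR1B, ADAMTS1 and POGLUT2 also gained the call, with differences of 2.02, 2.03 and -2.09 without 16C 3; 8C 4 stood apart as the highest 8C library for ADAMTS1.

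**Figure D5:**
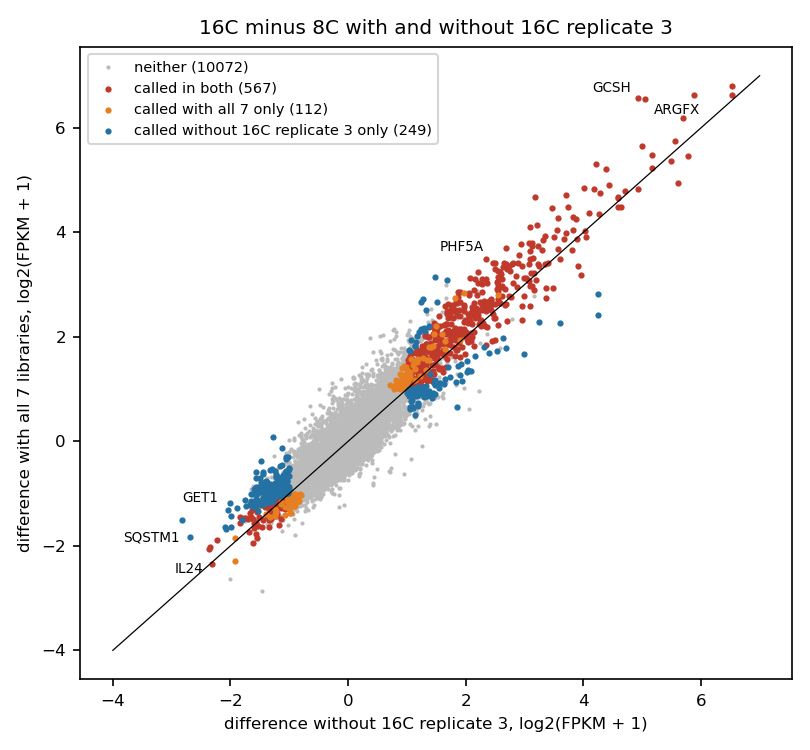
Difference of each tested gene, 16C minus 8C on the log2(FPKM + 1) scale, with all 7 libraries (vertical axis) against the same without 16C 3 (horizontal axis), with the line of equal differences. Most of the largest higher genes, among them GCSH, lie above the line, so their difference is larger with 16C 3; SQSTM1 and GET1 are lower without it.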

How the data were processed

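Polyadenylated RNA of sheep oocytes and embryos was sequenced in 26 libraries, of which the 3 16C and 4 8C libraries were compared. The authors deposited a table of FPKM with 30186 genes and 1 column per library; the tools in the submitters' processing notes, whose roles are not stated, are featureCounts 2.0.1, SAMtools 1.9, HISAT2 2.1.0 and fastp 0.23.4. Neither the genome build nor the annotation or use of strand is given in the sources used here, so overlapping and antisense genes cannot be told apart. Depth was read from the steps of low FPKM values of small RNA genes, all of which, up to 20 reads, came out whole within 0.05 reads. Counting error is small except near 0, and reads without molecular identifiers are not independent molecules.

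Genes with an FPKM of at least 1 in at least 2 of the 7 libraries entered limma 3.58.1 (R 4.3.3) on log2(FPKM + 1): lmFit, then eBayes with its trend option, no block, 5 residual degrees of freedom and a prior of 4.645. The scripts were tested on simulated data. Single values per library were compared with exact two-sided permutation tests in scipy 1.17.1. Alternatives were a fit of all 26 libraries, a replicate block, other pseudocounts, filters, scalings and variance models, and leaving out each library. Row names were matched to a RefSeq gene table (assembly ARS-UI_Ramb_v3.0, 25443 symbols), which also gave the mitochondrial symbols. Its coordinates gave the order of neighbouring genes, and its lengths of small RNA genes entered the reading of depth. No sequences were used.

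The comparison, the gene lists and the genes to be named were chosen with earlier results of these data known. Named were the 12 largest higher and 12 largest lower genes whose groups do not overlap and that stayed called without 16C 3, leaving out unnamed loci; up to 4 called members of each list by size; a fixed set of embryo genes; and the 6 largest calls lost and 6 largest gained without 16C 3. Of those gained, 1 is not reported here. SRGN, STAT3, CASC3, PWP1, EIF3L, KDM1A, PDIA4, MTHFD2, SLC3A2 and the neighbouring genes named at the end were chosen after their values were seen.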

Additional observations from a re-analysis of the deposited data

Results flagged for a closer look

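In 7 of 119 groups of 4 8C libraries examined, 1 library lay farther from the others than Dixon's 95% limit for 4 values; chance alone gives about 1 in 20. In 6 of the 7 genes that library was 8C 4. It was the lowest 8C library for MED29 at 2.88 FPKM, for CDC73 at 4.36 FPKM and for SETD2 at 0.149 FPKM. It was the highest for ZAR1L at 82.0 FPKM, for FOS at 1.38 FPKM and for ADAMTS1 at 0.212 FPKM. For PRDX2 the library apart was 8C 3, at 31.6 FPKM, the lowest of its group. In all 7 genes the 16C libraries lay on 1 side of every 8C library, 8C 4 and 8C 3 included. Without 8C 4, MED29, FOS and PRDX2 were still called, ZAR1L, CDC73 and SETD2 were not, and ADAMTS1 was not called with or without it.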

How the results depend on the processing

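Leaving out 1 library at a time gave 323 to 974 called genes, 278 to 735 higher and 25 to 272 lower. The fit of all 26 libraries called 1221 (892 higher, 329 lower). With no filter on low values there were 280 (236 and 44) and with array weights 1185, of which 428 were lower. TPM rescaling gave 294 lower genes and median-ratio scaling 66. With the replicate number as a replicate block, which left 2 residual degrees of freedom, 261 genes were called, 251 higher and 10 lower. Same-numbered libraries deviated together with r of 0.028, -0.006 and 0.015, and each of the 3 16C libraries correlated best with an 8C library of another number. Deviations from the mean of so few libraries are tied to each other. These values therefore cannot show whether a number marks a shared batch, day or parent, and the labels do not say. The other settings kept the counts within 1.5 times. The difference in genes detected was 83.2 and turned to -393 at FPKM of at least 0.1 and -145 at TPM of at least 1; without 1 library it was 29.3 to 132. The mitochondrial difference was 1.69 to 2.43 percentage points without 1 library. Over 117 named genes tested and all settings, 1643 values kept their direction and call, 300 lost the call, 25 gained it and 1 changed sign: POU5F1 was at -0.0 with array weights. The cause of these changes was not tested. Fits without a library, or with a block, have fewer residual degrees of freedom. Those without 16C 1 and without 16C 3 called 974 and 816 genes, and the fit of all 7 libraries called 679.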

Other observations

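Tested genes next to each other in the reference gene order were compared for their calls, with 10333 of the 11000 placed. Of 950 neighbours of higher genes 78 (8.21%) were higher, against 4.61% of the neighbours of all tested genes. There were 39 adjacent pairs with both genes higher, among them NHP2 (3.34) with HNRNPAB (3.99), CDKN2C (2.97) with RNF11 (5.37), DESI2 (4.85) with ADSS2 (2.07), TOB2 (1.16) with PHF5A (3.48), THOC2 (1.46) with STAG2 (3.03) and TBX3 (1.23) with RBM19 (1.08). Of 301 neighbours of lower genes 2 (0.664%) were lower, against 1.46%, and CSTF2 with XKRX was the 1 such pair. Overlapping genes and near-identical copies are uncertain here, since the counting could have split their reads.

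Genes without a symbol were frequent among the rises. Rows named only by a LOC number made up 144 (28.1%) of the higher genes, 32 (19.3%) of the lower genes and 18.9% of all tested genes. The 100 genes with the highest FPKM held 34.8% to 35.7% of the summed FPKM in 16C libraries and 34.8% to 35.6% in 8C libraries.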
